A study of Mus musculus with 96 samples.

Results

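The 30 genes described here mark lymphocytes and the tissue of lymph nodes: 11 genes of B lymphocytes, 12 of T lymphocytes, 4 cytokines that organise lymphoid tissue, and 3 genes of leukocytes in general. They were taken by symbol from a table of 29072 gene symbols, and each symbol stands for its most abundant transcript, by the mean of the 96 libraries. The libraries are poly(A) RNA sequencing of 2 fat depots of male C57BL/6J mice, the interscapular brown fat (iBAT) and the inguinal white fat (iWAT), with 8 libraries in each of 12 groups. Mice were wild-type or Ucp1-KO, that is labelled UCP1(-/-) and so without a working gene for uncoupling protein 1, the proton carrier with which brown fat makes heat. They were kept for 4 weeks on a control diet (13% of energy as fat) at 20 °C, on the same diet at 30 °C (thermoneutrality for a mouse), or at 30 °C with more fat in the diet (48% of energy, called high fat diet here). All animals were of 1 strain and 1 sex, ages are not given in the labels, and the labels do not say how the knockout allele was made. The study asked how genotype, temperature and diet shape the RNA of both depots, and here the question is how much lymphocyte RNA each library carried.

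Inguinal fat of the mouse surrounds a lymph node, whereas the interscapular brown fat pad is not known for one. In a lymph node, stromal cells release CXCL13, which draws B lymphocytes into follicles, and CCL19 and CCL21, which draw T lymphocytes into the zone beside them. Lymphocytes in turn carry lymphotoxin beta (Ltb), which keeps those stromal cells alive and secreting. Plasma cells, which B lymphocytes become when they secrete antibody, lose most B lymphocyte surface proteins but make immunoglobulin chains and the joining chain Igj in large amounts.

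The promoters of 22 of the 30 genes were found in the RefSeq set (build GRCm38.p6, 250 bases before to 50 after the gene start). Those of 4 genes that the results turn on are shown to set a B lymphocyte gene, a T lymphocyte gene, a lymphotoxin gene and a plasma cell gene side by side. Capitals mark the motifs AGGAAGT (bound by Ets factors), CAGGTG (an E-box) and the kappaB motif (bound by NF-kappaB) on either strand; no 2 matches overlap in them.
Cd79a (chr7:24897247-24897546, plus strand): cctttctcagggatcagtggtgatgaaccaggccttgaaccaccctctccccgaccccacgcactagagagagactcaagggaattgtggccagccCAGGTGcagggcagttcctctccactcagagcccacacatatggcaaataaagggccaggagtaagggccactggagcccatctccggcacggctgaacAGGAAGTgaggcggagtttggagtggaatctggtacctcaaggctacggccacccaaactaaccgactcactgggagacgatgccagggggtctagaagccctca
Cd3e (chr9:45009562-45009861, minus strand): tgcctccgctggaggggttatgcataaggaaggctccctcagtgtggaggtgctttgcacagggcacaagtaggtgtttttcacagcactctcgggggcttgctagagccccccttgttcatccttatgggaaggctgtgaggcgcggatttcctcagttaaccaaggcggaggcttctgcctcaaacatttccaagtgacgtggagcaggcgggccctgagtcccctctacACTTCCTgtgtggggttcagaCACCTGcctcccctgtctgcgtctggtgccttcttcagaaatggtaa
Ltb (chr17:35194257-35194556, plus strand): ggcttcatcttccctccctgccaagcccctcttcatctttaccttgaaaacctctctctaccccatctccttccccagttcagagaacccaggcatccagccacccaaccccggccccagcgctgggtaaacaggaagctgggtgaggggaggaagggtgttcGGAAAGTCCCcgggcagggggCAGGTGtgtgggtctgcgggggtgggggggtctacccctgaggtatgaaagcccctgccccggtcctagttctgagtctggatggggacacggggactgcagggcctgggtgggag
Igj (chr5:88527848-88528147, minus strand): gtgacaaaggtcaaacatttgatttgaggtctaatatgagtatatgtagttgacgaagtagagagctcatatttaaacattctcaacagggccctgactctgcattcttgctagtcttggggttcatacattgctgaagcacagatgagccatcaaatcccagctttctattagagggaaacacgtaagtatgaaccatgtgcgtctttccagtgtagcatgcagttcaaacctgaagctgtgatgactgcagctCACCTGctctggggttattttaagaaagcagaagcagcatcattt
AGGAAGT was present in 7 of the 22 promoters (Cd79a, Cd3d, Cd3e, Lck, Cd5, Ptprc and Cd37) and in 9.57% of all 27025 promoters of this length. CAGGTG was present in 12 of the 22 and in 20.0% of all promoters. The kappaB motif was found in the Ltb promoter among the 22 and in 0.385% of all, the EBF motif in Cd22 and in 0.914% of all, and the octamer ATTTGCAT in none of the 22 and in 1.75% of all. A match is a description of the letters and no match says only that they are not in this window.

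Depth, worked out from the steps between low values and transcript lengths, ran from 8.91 to 19.2 M reads per library (M, mega) with a median of 11.8 M, so that 1 read on a transcript of 1 kb is worth 0.0520 to 0.112 RPKM (reads per kilobase of transcript and M reads). Mean depth was lowest, at 10.5 M reads, in the high fat diet group of wild-type iBAT and highest, at 13.5 M, in the control diet group of Ucp1-KO iBAT at 30 °C. The 24 iBAT libraries labelled Ucp1-KO held 546 to 1145 RPKM of Ucp1, and the 24 wild-type ones 2428 to 9281 RPKM. In iWAT at 20 °C it was higher in the libraries labelled Ucp1-KO (196 to 597 RPKM) than in most wild-type ones (23.9 to 281 RPKM), so there its level does not check the genotype. A few libraries stand apart in the genes described here, and several of the counts and correlations that rest on them are also given without them. The SDs within groups are given with all libraries. Library 79 (Ucp1-KO iWAT, control diet, 30 °C) was the lowest of its 8 libraries for 27 of 28 measured genes, library 21 (wild-type iBAT, control diet, 30 °C) the highest for 26, and library 44 (Ucp1-KO iBAT, high fat diet) the highest for 25.

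Of the 30 genes, 28 had values above 0. Ccl19 and Ccl21a, the T zone chemokines, were listed at 0 in every one of the 96 libraries, although Glycam1, a gene of the high endothelial venules through which lymphocytes enter lymph nodes (named after its values were seen), was at 16.8 to 134 RPKM in every iWAT library but library 79. Of all 50-base stretches in their reference transcripts, 59.1% for Ccl19 and 71.6% for Ccl21a also occur in transcripts of other genes, against 0 shared stretches for 23 of the 30 genes. How the authors counted such reads is not given, so the 0 of these 2 genes is not read as absence.

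**Figure D1:**
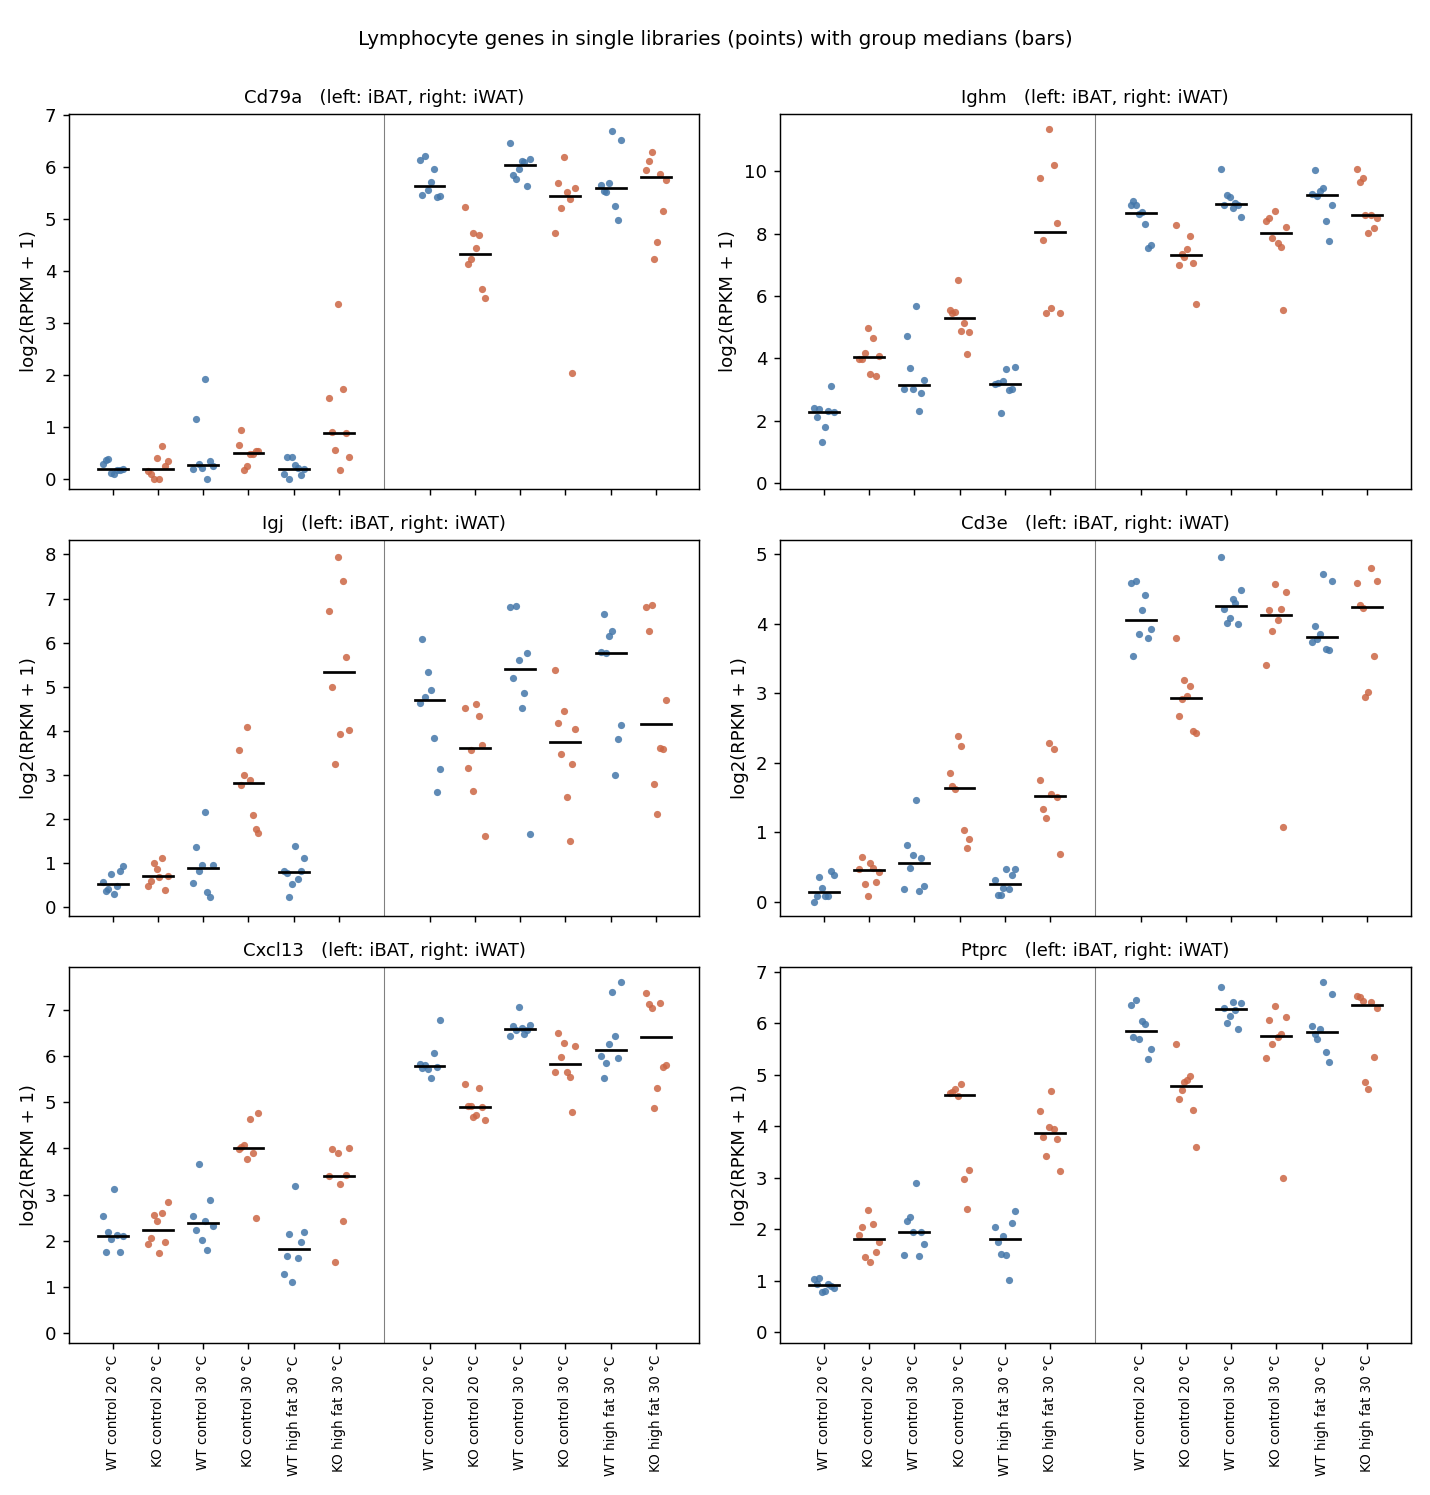
Levels of 6 genes as log2(RPKM + 1) in every library (points, blue wild-type and orange Ucp1-KO) with the group median (bar), iBAT on the left and iWAT on the right of each panel. Cd79a and Cd3e are far higher in iWAT, where the Ucp1-KO group at 20 °C is lowest, while Ighm and Igj of Ucp1-KO iBAT on high fat diet reach 2622 and 244 RPKM.

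Lymphocyte RNA was far more abundant in iWAT than in iBAT. Cd79a, the signalling chain of the B lymphocyte receptor, had a lowest, median and highest level of 3.08, 46.8 and 102 RPKM over the 48 iWAT libraries and of 0, 0.224 and 9.31 RPKM over the 48 iBAT libraries. Cd3e, a signalling chain of the T lymphocyte receptor, had 1.12, 14.8 and 30.0 RPKM in iWAT and 0, 0.394 and 4.22 RPKM in iBAT. Without library 79 the iWAT libraries lay above all iBAT libraries for both genes, at 10.1 RPKM or more for Cd79a and 4.39 RPKM or more for Cd3e. With all libraries every iWAT library lay above every iBAT library for 3 genes (Pax5, Cr2 and Fcer2a; 0.693% of all 16310 genes tested), and without library 79 for 14 (1.30% of all genes).

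The ratio of the iWAT median to the iBAT median ran from 13.4 for Cxcl13, through 18.0 for Ptprc (CD45, the phosphatase on all leukocytes), to 46.2 in the middle of 27 genes. For the B lymphocyte genes Ms4a1 (CD20) and Faim3 (the IgM receptor) it was 239 and 228, with iBAT medians of 0.140 and 0.200 RPKM, which is the worth of a few reads, so these ratios are imprecise. The ratios of B lymphocyte genes ran from 23.2 for Igj to 329 for Fcer2a, an IgE receptor, and those of T lymphocyte genes from 23.7 for Cd4 to 83.8 for Lef1, a transcription factor.

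By limma, a linear model with a shared estimate of spread, on log2(RPKM + 1), all 28 measured genes were lower in iBAT than in iWAT in the 3 wild-type conditions and in Ucp1-KO mice at 20 °C (64.4%, 61.8%, 61.9% and 42.7% of all 16310 genes tested were lower in wild-type at 20 °C, at 30 °C, on high fat diet and in Ucp1-KO at 20 °C). In Ucp1-KO mice 27 genes were lower on control diet at 30 °C (35.8% of all genes) and 26 on high fat diet (45.0% of all genes). The median change of the 28 lay between −4.53 (wild-type at 20 °C) and −2.43 (Ucp1-KO, control diet at 30 °C), against −0.43 and −0.07 over all genes. Median-ratio scaling left these 6 counts as they were, while in wild-type mice at 20 °C it turned 2584 genes higher and 10498 lower into 5707 and 6601. Cd79a differed between −5.52 ± 0.31 (SE, wild-type on high fat diet) and −4.09 ± 0.31 (Ucp1-KO at 20 °C), with adjusted p-values of 7.2e-21 or less. The exceptions were Igj in both Ucp1-KO conditions at 30 °C (−0.87 ± 0.57, adjusted p = 0.178, on control diet and 0.90 ± 0.57, adjusted p = 0.151, on high fat diet, limma) and Ighm, the heavy chain of IgM, on high fat diet (−0.93 ± 0.47, adjusted p = 0.0715). Both depots came from the same 48 animals, but the labels do not tie libraries of 1 animal together, and the test treats them as separate.

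Within iWAT, the genes moved together from library to library. Their SD within groups on the log2(RPKM + 1) scale had a median of 0.68, against 0.21 over all genes tested, and ran from 0.57 (Pax5 and Cr2) to 1.40 (Igj). In the plot of single iWAT libraries, libraries 65, 57 and 76 were the highest of their groups for 26, 27 and 24 genes and libraries 64 and 79 the lowest of theirs for 24 and 27. Over the 48 libraries, after the group mean was taken off, Cd79a correlated with Cd3e at r = 0.96 (rho = 0.94), with Coro1a, an actin regulator of leukocytes, at r = 0.98 (rho = 0.97) and with Ptprc at r = 0.97 (rho = 0.97). Each had a permutation p of 1.0e-05, the smallest that 100000 permutations can give, and an adjusted p of 3.3e-05 over the 10 relations computed. Without the libraries farthest from the median, 79 and 64, these were 0.92, 0.97 and 0.96. Within single groups, r ranged from 0.89 to 0.99 for Cd3e.

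Cd79a and Cd3e kept nearly fixed proportions in iWAT. The ratio of Cd79a to Cd3e in RPKM was 2.12 to 4.33 over the 48 iWAT libraries with a median of 3.10. The SD within groups of the log2 ratio was 0.21, where the genes themselves had 0.76 and 0.75. These SDs are of log2 RPKM without a pseudocount and include library 79. Cd4 to Cd8a, the coreceptors of helper and cytotoxic T lymphocytes, was at 0.586 to 1.12 with a median of 0.826. In library 79, where Cd79a was at 3.08 RPKM and Cd3e at 1.12 RPKM, the ratio of Cd79a to Cd3e was 2.75. Another ratio of a B to a T lymphocyte gene, Ms4a1 to Cd8a, was 0.972 to 2.06 in the other 47 iWAT libraries, with a median of 1.53 over all 48, but 2.85 in library 79. Libraries of 1 depot share depth and composition effects, and such values describe these 48 libraries. Fewer lymphocytes and less RNA per lymphocyte cannot be told apart in bulk tissue, here or below.

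The genes that followed the others least were Igj, Cxcl13 and Ighm. Their deviations correlated with the mean deviation of the measured genes at r = 0.399, 0.690 and 0.771, where Ptprc had 0.990. Cxcl13, made by stromal cells, correlated with Cd79a at r = 0.68 (rho = 0.58, permutation p = 2.0e-05 and 2.0e-04, adjusted p = 5.0e-05 and 4.0e-04), unchanged without libraries 79 and 64, with r within single groups from −0.24 to 0.91. Library 79 shows it: Cxcl13 was at 26.6 RPKM there, about the level of the Ucp1-KO group at 20 °C (median 28.9 RPKM), while Tcf7, a transcription factor of resting T lymphocytes, was at 1.32 RPKM against a median of 18.4 RPKM in that group. Adipoq, the adipocyte hormone adiponectin, went the other way from Cd79a, with r = −0.58 (rho = −0.63, permutation p = 3.0e-05 and 2.0e-05, adjusted p = 6.0e-05 and 5.0e-05) and −0.71 without libraries 79 and 64.

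Among genes outside the 30, the 10 whose deviations over the 48 iWAT libraries were most like the mean deviation of the measured genes were Rac2 (r = 0.993), Limd2 (0.992), Itgal (0.990), Grap2 (0.989), B4galnt1 (0.988), Slc26a10 (0.988), H2-Ob (0.987), Il2rg (0.987), Sash3 (0.987) and H2-DMb2 (0.986). In all, 180 genes were above r = 0.95.

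**Figure D2:**
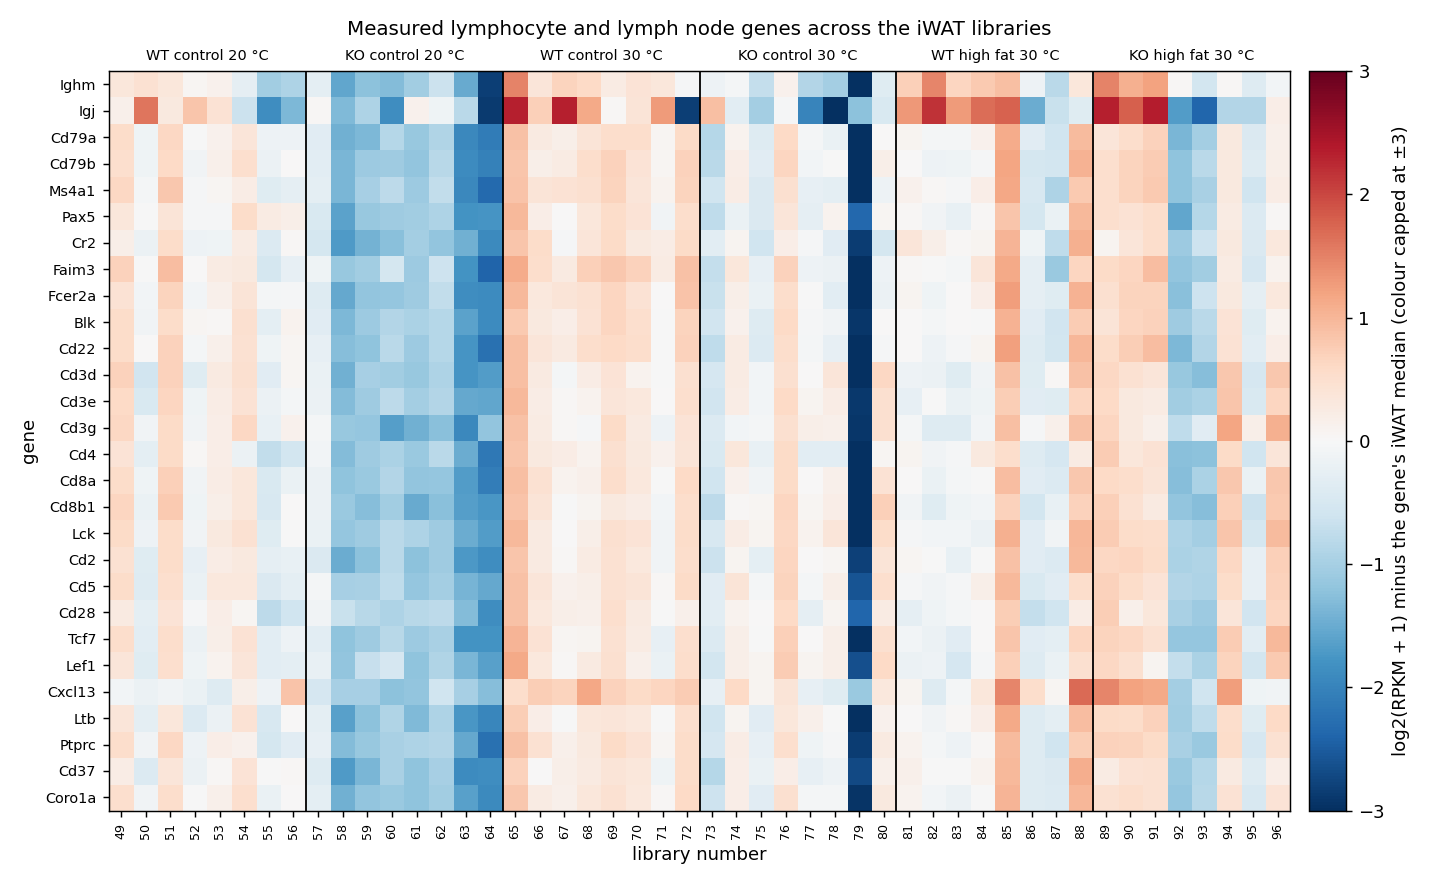
Deviation of 28 genes from their own iWAT median on the log2(RPKM + 1) scale (colour, capped at 3) in the 48 iWAT libraries by number, with black lines between groups. Whole columns share a colour, with library 79 the darkest blue and the Ucp1-KO group at 20 °C blue throughout, and the rows of Igj and Cxcl13 depart from the rest.

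In iWAT at 20 °C, Ucp1-KO mice had less lymphocyte RNA than wild-type mice. Cd79a had 41.9, 48.8 and 72.6 RPKM (lowest, median and highest of 8) in wild-type and 10.1, 19.2 and 36.5 RPKM in Ucp1-KO libraries. Cd3e had 10.6, 15.8 and 23.5 RPKM against 4.39, 6.67 and 12.9 RPKM. For Cd79a no Ucp1-KO library reached the lowest wild-type one, and for Cd3e the groups overlapped in their margins.

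Of the 28 measured genes, 27 were lower in Ucp1-KO and none higher (55.0% of all 15897 genes tested in iWAT were lower), and for 10 all Ucp1-KO libraries lay below all wild-type ones (14.7% of all genes): Cd79a, Cd79b, Pax5, Cr2, Fcer2a, Blk, Cd22, Cd2, Cxcl13 and Coro1a. The median change of the 28 was −1.27 on the log2(RPKM + 1) scale, against −0.27 over all genes. That background depends on the scaling: of all genes 1566 were higher and 8739 lower as deposited, but 4258 higher and 3498 lower after median-ratio scaling, which brings the median of all genes to −0.01. With that scaling 25 of the 28 genes were lower, and with quantile normalization 26.

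Among the B lymphocyte genes, 10 of 11 were lower. Cd79a changed by −1.41 ± 0.35 (SE, adjusted p = 5.4e-04, limma), its partner chain Cd79b by −1.39 ± 0.35, Pax5, the transcription factor that keeps B lymphocyte identity, by −1.43 ± 0.28 (adjusted p = 2.6e-05) and Cr2, the complement receptor of follicular B lymphocytes and follicular dendritic cells, by −1.32 ± 0.28. Pax5 was at 3.36, 6.01 and 9.96 RPKM in Ucp1-KO libraries, against 13.6, 16.5 and 20.9 RPKM in wild-type libraries, a clear gap. Igj did not pass the test (−0.90 ± 0.67, adjusted p = 0.235), with 2.05, 11.3 and 23.4 RPKM in Ucp1-KO libraries, against 5.13, 25.1 and 66.8 RPKM in wild-type libraries.

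All 12 T lymphocyte genes were lower. The changes ran from −0.82 ± 0.28 (adjusted p = 0.0116, limma) for Cd28, a costimulatory receptor, to −1.44 ± 0.31 (adjusted p = 1.1e-04) for Cd3g, a signalling chain of the receptor. Cd8a and Cd8b1, which lie side by side and encode the CD8 coreceptor, changed by −1.29 ± 0.37 and −1.37 ± 0.37, and Cd4 by −1.06 ± 0.34. Lck, the kinase that the coreceptors bring to the receptor, had 7.08, 11.3 and 21.3 RPKM in Ucp1-KO libraries, against 19.1, 27.3 and 37.3 RPKM in wild-type libraries, where 1 Ucp1-KO library (57) lay within the wild-type range.

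Both measured cytokines and all 3 leukocyte genes were lower as well. Cxcl13 was at 23.6, 28.9 and 41.3 RPKM in Ucp1-KO libraries, against 45.1, 54.0 and 108 RPKM in wild-type libraries, a change of −0.97 ± 0.28 (adjusted p = 0.00283, limma) with no overlap. Ltb changed by −1.23 ± 0.33, Ptprc by −1.20 ± 0.32, Cd37, a tetraspanin of lymphocytes, by −1.36 ± 0.28 (adjusted p = 7.6e-05) and Coro1a by −1.40 ± 0.30. The medians of all 28 genes were lowest in this group among the 6 iWAT groups.

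Further lymphocyte genes outside the 30 moved with them: all 13 other B lymphocyte genes were lower in Ucp1-KO, with a summed level of 74.7 to 252 RPKM against 249 to 452 RPKM, and all 15 other T lymphocyte genes, with 43.5 to 162 RPKM against 133 to 276 RPKM. Markers of other cells moved too. All 6 brown adipocyte genes were higher in Ucp1-KO, with a summed level of 1142 to 2985 RPKM against 145 to 622 RPKM in wild-type libraries, or 917 to 2388 RPKM against 121 to 342 RPKM without Ucp1. Of the 10 genes of lymph node vessels and stroma 9 were lower, with a summed level of 77.9 to 134 RPKM against 126 to 178 RPKM. Pdpn, of stromal and lymphatic cells, changed by −0.76 ± 0.20 (adjusted p = 8.8e-04, limma), Madcam1 by −0.58 ± 0.17 and Chst4, a high endothelial venule enzyme, by −0.60 ± 0.19. Of 14 macrophage genes 11 were lower (summed level 389 to 649.7 RPKM against 645 to 1190.4 RPKM). None of these markers was at 0 in all libraries, and their part in the result was not tested.

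At 30 °C on control diet the same comparison of genotypes in iWAT rested on library 79. Cd79a had 48.5, 64.2 and 86.9 RPKM in wild-type and 3.08, 42.6 and 71.4 RPKM in Ucp1-KO libraries, and without library 79 the lowest Ucp1-KO value was 25.6 RPKM. With all libraries 11 of the 28 genes were lower (16.2% of all genes), 10 of them B lymphocyte genes and the other Cxcl13, without library 79 there were 2 and without library 76 there were 16. The 12 T lymphocyte genes ran from −0.83 ± 0.34 (Cd4, adjusted p = 0.0685, limma) to −0.50 ± 0.30 (Lef1), and none passed. Cd3e had 15.0, 18.0 and 30.0 RPKM in wild-type and 1.12, 16.5 and 22.9 RPKM in Ucp1-KO libraries, which overlapped over most of their range. The median change of the 28 was −0.77, against −0.12 over all genes. The count fell to 5 after median-ratio scaling, where 1760 of all genes were higher and 770 lower instead of 1199 and 2582.

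On high fat diet no gene of the 28 passed in iWAT, in either direction, and none had an unadjusted p under 0.05 (limma; 0.0881% of all genes were lower and 0.195% higher). Changes ran from −0.60 for Igj to 0.17 for Cd3g, with a median of −0.09 against −0.04 over all genes. Cd79a had 30.6, 47.1 and 102 RPKM in wild-type and 17.6, 54.8 and 76.5 RPKM in Ucp1-KO libraries (−0.25 ± 0.35, adjusted p = 0.952), so the SE leaves room for differences in either direction.

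**Figure D3:**
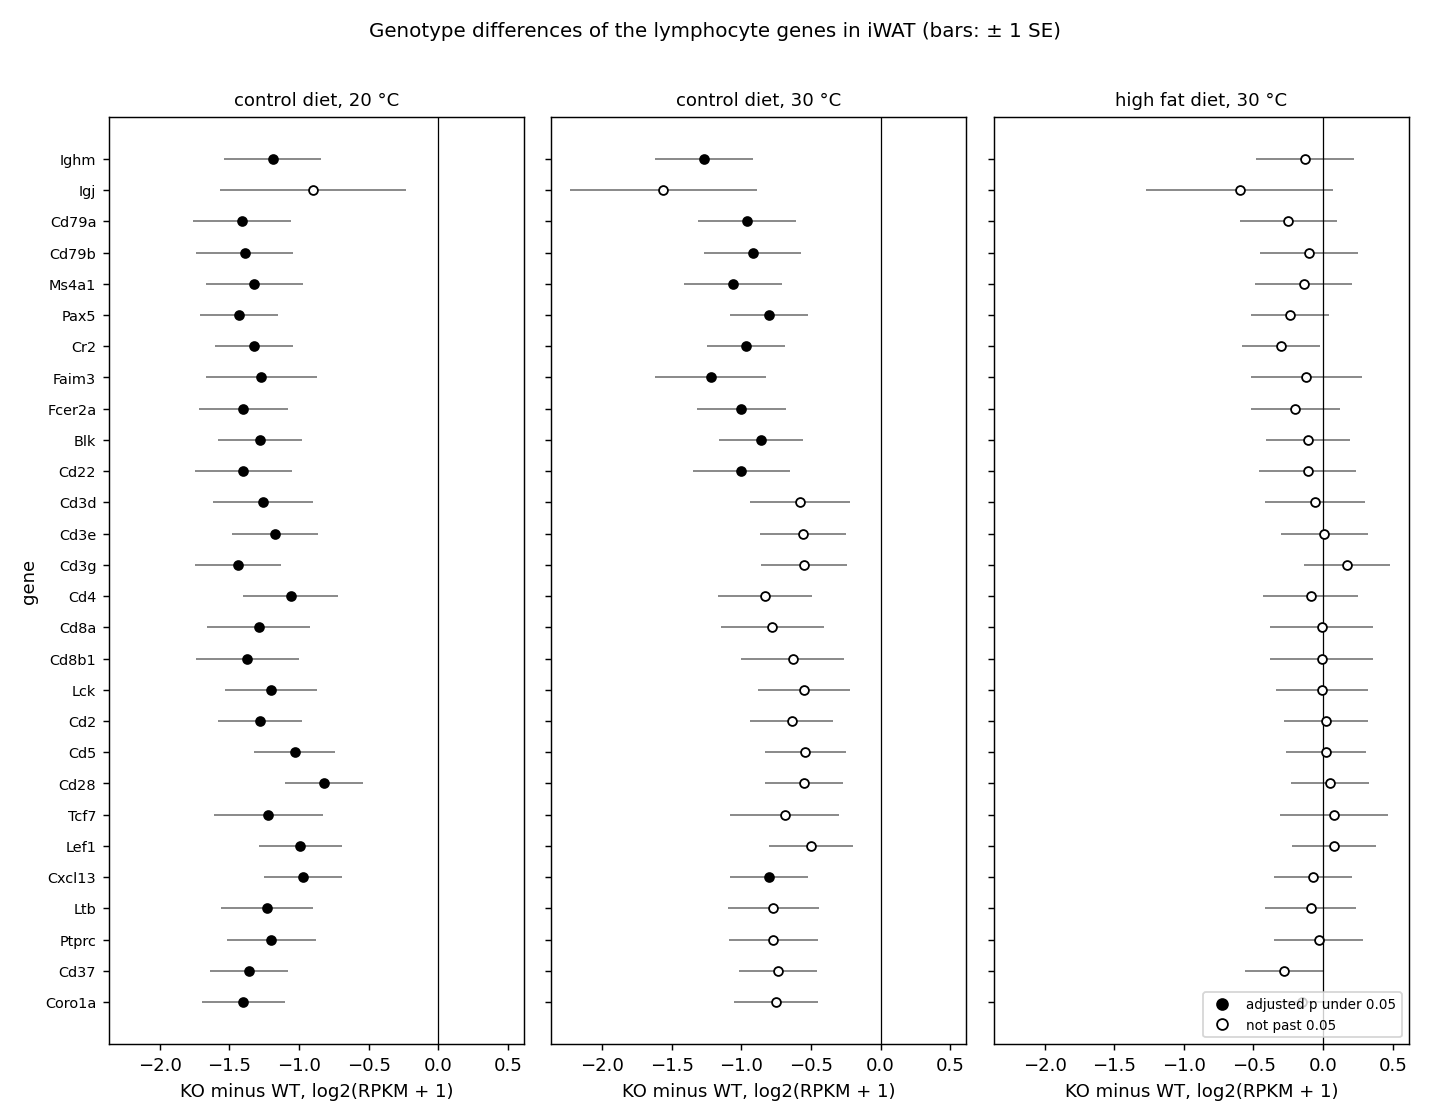
Ucp1-KO minus wild-type in iWAT for 28 genes (points) with 1 SE on either side, on the log2(RPKM + 1) scale, in the 3 conditions; filled points pass an adjusted p of 0.05. At 20 °C 27 points are filled and all lie below 0, at 30 °C on control diet 11 are filled, and on high fat diet none.

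Temperature and diet changed few of these genes in iWAT in a way that held. In wild-type mice none of the 28 differed between 20 and 30 °C (12.4% of all genes were lower and 7.25% higher at 20 °C; 1 gene had an unadjusted p under 0.05, limma). That gene was Cxcl13, at −0.72 ± 0.28 (adjusted p = 0.0619), with a median of 94.7 RPKM at 30 °C and of 54.0 RPKM at 20 °C. In Ucp1-KO mice 18 genes were lower at 20 °C (51.4% of all genes), with a median change of −0.79 against −0.25 over all genes. There were none after median-ratio scaling (3838 of all genes higher and 2219 lower, instead of 1434 and 8164) and 1 after quantile normalization. Without library 79 there were 27, and without library 76 or library 80 there were 8. Of the 18, 9 were T lymphocyte genes, with Cd3g at −0.95 ± 0.31 (adjusted p = 0.00776), 4 were B lymphocyte genes, 2 were the cytokines, with Cxcl13 at −0.90 ± 0.28 (adjusted p = 0.00637), and 3 were Ptprc, Cd37 and Coro1a.

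The interaction, that is the temperature change in Ucp1-KO minus that in wild-type iWAT, passed for none of the 28 genes (11.1% of all genes lower, 2.15% higher; 1 unadjusted p under 0.05), with a median of −0.46 against −0.16 over all genes. It passed for 10 without library 79. Median-ratio scaling gave 0 for both counts, with 1554 of all genes higher and 637 lower instead of 1152 and 1964 for temperature in wild-type iWAT and 1166 and 224 instead of 342 and 1768 for the interaction. High fat diet changed none of the genes in wild-type iWAT (3.84% of all genes lower, 9.69% higher; 0 with an unadjusted p under 0.05). In Ucp1-KO iWAT it raised 1, Ighm (16.1% of all genes were higher), by 1.11 ± 0.35 (adjusted p = 0.0178, limma). It did so after median-ratio scaling too, where 1339 of all genes were higher and 1725 lower instead of 2552 and 1321. Ighm went from 46.0, 264 and 419.8 RPKM on control diet to 259.6, 391 and 1075 RPKM on high fat diet. Those groups overlapped, and without library 79 or library 89 the change did not pass. The interaction of genotype and diet passed for none (0.101% of all genes higher, 1.23% lower; 1 unadjusted p under 0.05).

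In iBAT the levels were low, and 22 of the 30 genes passed the filter of at least 0.5 RPKM in 8 or more libraries. Besides Ccl19 and Ccl21a, Ms4a1, Pax5, Cr2, Fcer2a, Blk and Lef1 did not, 5 of them B lymphocyte genes. Cr2 was at 0.288 RPKM at most, and Pax5 at 1.34 RPKM at most. The highest group median lay in a Ucp1-KO group at 30 °C for all 28 measured genes (18 on control diet, 10 on high fat diet), and 8 of the 22 genes passed the filter through those groups alone: Cd22, Cd79a, Faim3, Cd28, Cd3d, Cd3e, Cd5 and Cd8b1 had 0.5 RPKM in fewer than 8 of the other iBAT libraries. Being high there was partly the condition for testing these 8, so a count over the 22 is not one over all 30. Beside the main counts that involve those groups, the other 14 are counted or the part of these 8 is given. Over the 48 libraries Cd79a correlated less with the other genes than in iWAT: with Cd3e at r = 0.53 (rho = 0.38, permutation p = 0.00212 and 0.0177, adjusted p = 0.00353 and 0.0266), which became 0.34 without libraries 44 and 21. Its correlation with Coro1a was r = 0.42 (rho = 0.36), which became 0.26 without them. With Ptprc it was r = 0.23 (rho = 0.32, permutation p = 0.107 and 0.0378, adjusted p = 0.134 and 0.0473), which became 0.16. With Cxcl13 it was r = 0.10. The relations with Cd3e, Coro1a and Ptprc rest in part on those 2 libraries.

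In iBAT, Ucp1-KO mice had more RNA of these genes than wild-type mice at 30 °C. On control diet Ptprc had 1.80, 2.85 and 6.50 RPKM in wild-type and 4.27, 23.4 and 27.4 RPKM in Ucp1-KO libraries, and Cd3e 0.118, 0.484 and 1.76 RPKM against 0.716, 2.13 and 4.22 RPKM. For Ptprc the Ucp1-KO libraries fell into a higher and a lower set, at 22.9 to 27.4 RPKM in libraries 25 to 29 and at 4.27 to 7.88 RPKM in libraries 30 to 32. Not all genes divided this way: library 32 had the highest summed level of the cytokines in the group (28.0 RPKM). The highest wild-type value of Ptprc and of Cd3e came from library 21, and the genotypes overlapped for each of the 22 genes tested (21.8% of all genes lay above without overlap).

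On control diet at 30 °C 19 of the 22 genes were higher in Ucp1-KO (54.2% of all 14807 genes tested in iBAT were higher) and none lower, with a median change of 1.15 against 0.27 over all genes. Of the 14 genes that did not need the Ucp1-KO groups at 30 °C to pass the filter, 13 were higher. After median-ratio scaling, with which 4287 of all genes were higher and 4053 lower instead of 8025 and 1558, the count was 19 as well. The 11 T lymphocyte genes that could be tested were higher, 5 of which had passed the filter through these groups alone, and the changes ran from 0.57 ± 0.14 (adjusted p = 3.1e-04, limma) for Cd5 to 1.46 ± 0.22 (adjusted p = 2.1e-07) for Cd3g. On the log2(RPKM + 1) scale the 3 leukocyte genes changed by more than any T lymphocyte gene, with Ptprc at 2.01 ± 0.26 (adjusted p = 5.5e-09), Coro1a at 1.95 ± 0.22 and Cd37 at 1.79 ± 0.24. That scale shrinks changes of low genes such as Cd28 (medians 0.166 RPKM in wild-type and 1.34 RPKM in Ucp1-KO libraries), so the order is not one of fold changes.

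Of the 6 B lymphocyte genes tested, 3 were higher, a share no larger than the 54.2% of all genes. They were Ighm, higher by 1.67 ± 0.55 (adjusted p = 0.00706, limma), Igj by 1.81 ± 0.41 and Cd22, a B lymphocyte sialic acid receptor, by 1.16 ± 0.22. Cd22, Cd79a and Faim3 had passed the filter through the Ucp1-KO groups at 30 °C alone, and 2 of the other 3 genes were higher. Cd79a (−0.04 ± 0.25, adjusted p = 0.889), Faim3 (−0.07 ± 0.19) and Cd79b (0.57 ± 0.28, adjusted p = 0.0686) did not pass. Cd79a had 0, 0.205 and 2.80 RPKM in wild-type and 0.121, 0.417 and 0.922 RPKM in Ucp1-KO libraries, with the highest value in wild-type library 21. Without libraries 18 and 21, 20 of the 22 genes were higher. Cxcl13 rose by 1.47 ± 0.30 (adjusted p = 3.4e-05), from 2.48, 4.22 and 11.6 RPKM to 4.61, 15.1 and 26.2 RPKM, and Ltb by 0.87 ± 0.23.

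On high fat diet 21 of the 22 genes were higher in Ucp1-KO iBAT (52.8% of all genes), as were all 14 that did not need these groups to pass the filter, and 17 lay above all wild-type libraries in every Ucp1-KO library (20.4% of all genes). Among the 17, Cd22, Cd28, Cd3e and Cd8b1 had passed the filter through the Ucp1-KO groups at 30 °C alone, which favoured such a gap. Ptprc had 1.01, 2.53 and 4.14 RPKM in wild-type and 7.72, 13.6 and 24.8 RPKM in Ucp1-KO libraries (2.10 ± 0.26, adjusted p = 2.3e-09, limma), a clear gap. Lck had 0.0716, 0.280 and 0.688 RPKM against 1.94, 3.28 and 7.11 RPKM (1.80 ± 0.18, adjusted p = 2.3e-11), also without overlap. Faim3 was the gene that did not pass (0.39 ± 0.19, adjusted p = 0.069, limma). Cd79a rose by 0.99 ± 0.25 (adjusted p = 7.0e-04), from 0, 0.146 and 0.335 RPKM to 0.119, 0.845 and 9.31 RPKM, which overlapped. Both genes had passed the filter through the Ucp1-KO groups at 30 °C alone, so being high there was partly the condition for testing them. The median change was 1.42, against 0.25 over all genes. There were 21 genes higher after median-ratio scaling too, where 3996 of all genes were higher and 3877 lower instead of 7823 and 1635.

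The largest differences were those of the immunoglobulin chains. Ighm was at 3.70, 8.10 and 12.1 RPKM in high fat diet iBAT of wild-type mice and at 42.8, 270.5 and 2622 RPKM in Ucp1-KO iBAT, a change of 4.85 ± 0.55 (adjusted p = 3.0e-10, limma). Igj, the chain that joins IgM and IgA molecules, was at 0.167, 0.732 and 1.61 RPKM in wild-type and at 8.49, 40.5 and 244 RPKM in Ucp1-KO iBAT, a change of 4.70 ± 0.41 (adjusted p = 2.5e-13). Neither gene overlapped between the genotypes, and libraries 44, 46 and 41 held the 3 highest values of both. Ms4a1, a surface protein of B lymphocytes that plasma cells lose, stayed at 0.115, 0.450 and 5.19 RPKM in the same Ucp1-KO libraries and Cr2 at 0.288 RPKM or less.

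The ratio of Ighm to Ms4a1 in RPKM was highest in this group. It was 109.8 to 1689 in Ucp1-KO iBAT on high fat diet with a median of 468, against a median of 57.7 in high fat diet iBAT of wild-type mice and of 11.9 over the 48 iWAT libraries (6.96 to 30.6). The other Ucp1-KO iBAT groups overlapped with it, at 60.6 to 367 at 20 °C and 72.0 to 769.9 on control diet at 30 °C, and with Ms4a1 worth a few reads these ratios are imprecise. Igj to Ms4a1 was 21.7 to 198 with a median of 92.0 in that group, against a median of 0.660 over all iWAT libraries. Of the 6 plasma cell genes listed, 4 could be tested in iBAT, Mzb1 and Prdm1 through the Ucp1-KO groups at 30 °C alone, so that their being higher there was partly the condition for testing them. On high fat diet (52.8% of all genes higher) the 4 were higher in Ucp1-KO iBAT: Mzb1, an endoplasmic reticulum protein of antibody-secreting cells, by 1.94 ± 0.29 (adjusted p = 1.8e-07, limma), Sdc1 by 1.78 ± 0.18, Irf4 by 0.76 ± 0.26 and Prdm1 by 0.59 ± 0.10. Sdc1 and Prdm1 were also higher on control diet at 30 °C, where Mzb1 (0.24 ± 0.29, adjusted p = 0.474) and Irf4 (−0.04 ± 0.26) did not pass. The summed level of the plasma cell genes was 7.28 to 43.9 RPKM in Ucp1-KO libraries, against 2.67 to 5.73 RPKM in high fat diet iBAT of wild-type mice, while Irf4 alone, a factor that brown adipocytes also express, was at 10.8 to 47.2 RPKM in wild-type iBAT at 20 °C.

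**Figure D4:**
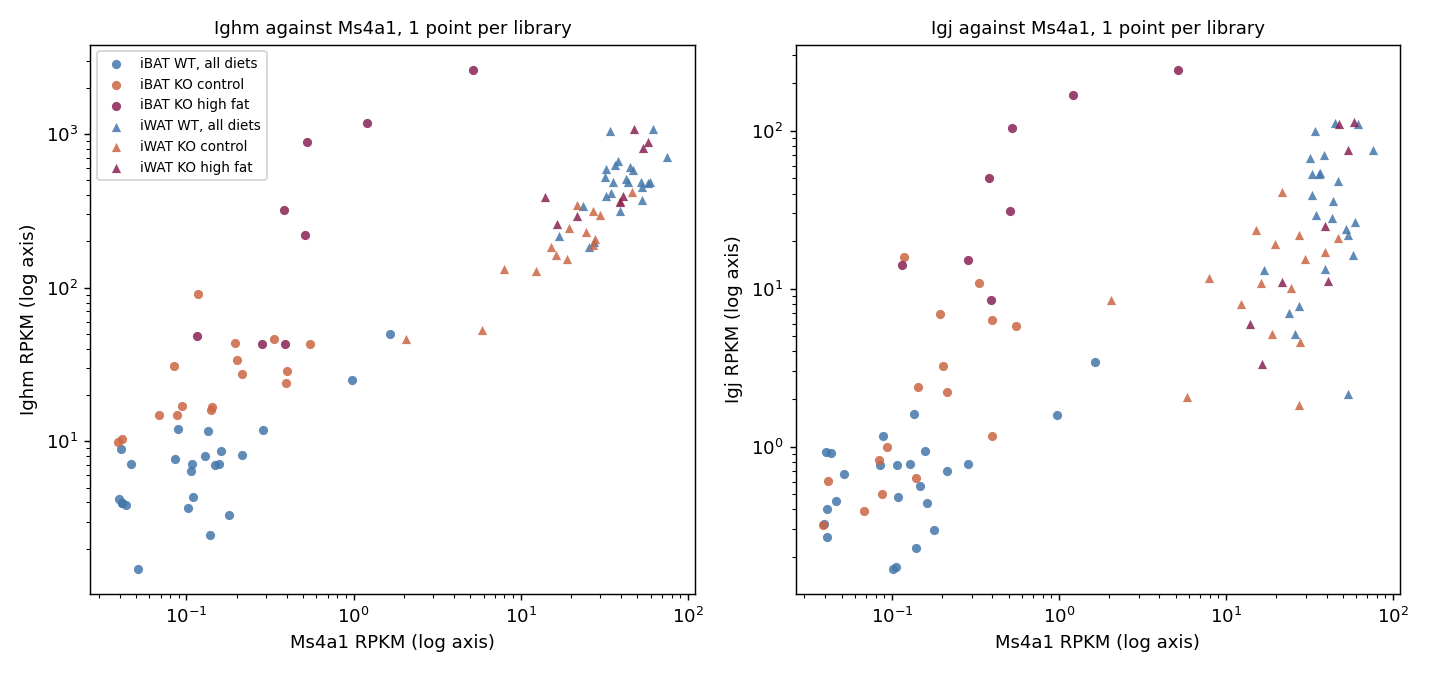
Ighm (left) and Igj (right) against Ms4a1 in RPKM on log axes, 1 point per library, circles for iBAT and triangles for iWAT. The iWAT libraries lie at high Ms4a1, and the Ucp1-KO iBAT libraries on high fat diet reach an Ighm of 42.8 to 2622 RPKM and an Igj of 8.49 to 244 RPKM at an Ms4a1 of 0.115 to 5.19 RPKM.

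At 20 °C fewer genes differed between genotypes in iBAT. Of the 22 genes 5 were higher in Ucp1-KO, a share no larger than the 24.7% of all genes, and none lower. The count was 5 after median-ratio scaling too, where 3123 of all genes were higher and 2899 lower instead of 3661 and 1940. The 5 were Ighm, higher by 1.89 ± 0.55 (adjusted p = 0.00507, limma), Ptprc by 0.90 ± 0.26, Coro1a by 0.89 ± 0.22 (adjusted p = 9.2e-04), Cd4 by 0.52 ± 0.20 and Cd2, an adhesion receptor of T lymphocytes, by 0.48 ± 0.20. The count was 10 with a pseudocount of 0.1. Ighm was at 1.47, 3.90 and 7.68 RPKM in wild-type and at 9.88, 15.5 and 30.8 RPKM in Ucp1-KO libraries, which did not overlap, and Ptprc at 0.711, 0.890 and 1.09 RPKM against 1.59, 2.53 and 4.16 RPKM, also without overlap. The other 17 genes had changes from 0.01 (Cd79a) to 0.51 (Cd37). Of 14 macrophage genes 10 were higher and 2 lower in the same comparison, with a summed level of 111 to 405 RPKM against 76.6 to 109 RPKM, without overlap, and their part in the result was not tested.

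**Figure D5:**
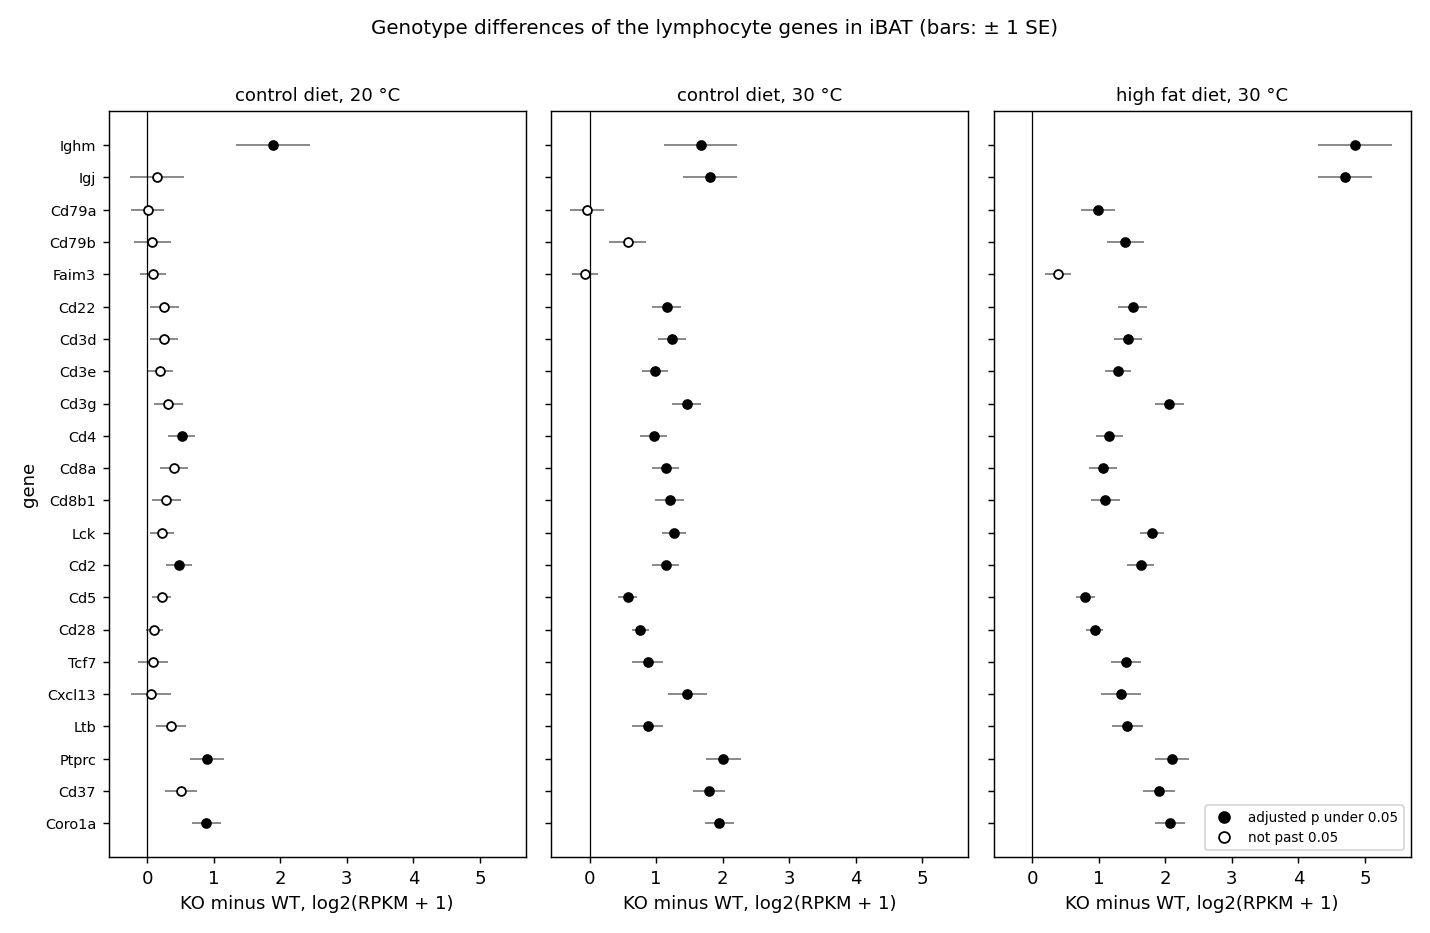
Ucp1-KO minus wild-type in iBAT for the 22 genes tested (points) with 1 SE on either side, on the log2(RPKM + 1) scale, in the 3 conditions; filled points pass an adjusted p of 0.05. At 20 °C 5 points are filled, at 30 °C on control diet 19 and on high fat diet 21, with Ighm and Igj near 5.

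Of the other T lymphocyte genes all 10 that could be tested were higher in Ucp1-KO iBAT in both conditions at 30 °C (54.2% of all genes on control and 52.8% on high fat diet), 5 of them having passed the filter through these groups alone. Of 11 other B lymphocyte genes, 7 through these groups alone, 7 were higher on control diet, a share near that of all genes, and 10 on high fat diet. Macrophage genes moved with them. At 30 °C on control diet 13 of 14 were higher in Ucp1-KO, with a summed level of 531 to 2030.1 RPKM against 159.7 to 279 RPKM in wild-type libraries. On high fat diet it was 13 of 14 and 741 to 1568 RPKM against 138 to 403 RPKM. Lgals3 (4.22 ± 0.27, adjusted p = 1.1e-16, limma), Gpnmb (4.67 ± 0.37) and Trem2 (3.60 ± 0.28), all of lipid-laden macrophages, had the smallest p-values at 30 °C on control diet beside Mpeg1 (3.44 ± 0.27). Ptprc, Coro1a and Cd37 are also made by macrophages. All 8 NK and cytotoxic genes that could be tested were higher in both conditions at 30 °C, 5 of them having passed the filter through these groups alone. Their summed levels were 6.84 to 39.1 against 1.34 to 4.59 RPKM on control diet. Of the 6 brown adipocyte genes 4 were lower and 1 higher on control diet, with a median change of −0.41. Their summed level is mostly Ucp1, the gene knocked out, and without it the other 5 summed to 1464 to 2845 RPKM against 1929 to 2484 RPKM, which overlapped. All 9 dendritic cell genes were higher on control diet (summed level 369 to 1316 RPKM against 193 to 297 RPKM) and 8 on high fat diet. Of the 9, 3 had passed the filter through the Ucp1-KO groups at 30 °C alone. Of 6 skeletal muscle genes 5 were higher on high fat diet (6.18 to 8702 RPKM summed, against 3.40 to 663 RPKM). None of these genes was at 0 in all libraries, and their part in the result was not tested.

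Changes with cooling were downward in iBAT, the direction they also had in iWAT. In Ucp1-KO iBAT 19 of the 22 genes were lower at 20 °C than at 30 °C (59.5% of all genes), with a median of −1.25 against −0.34 over all genes. There were also 19 with median-ratio scaling, where 4551 of all genes were higher and 5053 lower instead of 2058 and 8808. Coro1a had 10.5, 29.6 and 37.3 RPKM at 30 °C and 1.92, 4.78 and 6.15 RPKM at 20 °C (−2.34 ± 0.22, adjusted p = 6.2e-13, limma), with no overlap, as for 9 of the genes (27.9% of all genes). Among the 9, Cd28, Cd3d and Cd3e had passed the filter through the Ucp1-KO groups at 30 °C alone. Ptprc changed by −2.18 ± 0.26, Lck by −1.61 ± 0.18 and Cxcl13 by −1.69 ± 0.30, while Cd79a (−0.27 ± 0.25), Faim3 (−0.26 ± 0.19) and Ighm (−1.15 ± 0.55, adjusted p = 0.0559) did not pass. Of the 14 genes that did not need the Ucp1-KO groups at 30 °C to pass the filter, 13 were lower. All 14 macrophage genes (summed level 531 to 2030.1 RPKM at 30 °C and 111 to 405 RPKM at 20 °C) and all 9 dendritic cell genes (median change −1.48) were lower as well. Of these 9 dendritic cell genes, 3 had passed the filter through the Ucp1-KO groups at 30 °C alone. The part of both lists in the result was not tested.

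In wild-type iBAT 9 genes were lower at 20 °C (33.0% of all genes), with a median of −0.45 against −0.12. There were also 9 after median-ratio scaling, where 3069 of all genes were higher and 3093 lower instead of 1723 and 4887. Coro1a changed by −1.29 ± 0.22 (adjusted p = 4.2e-06, limma), from 3.77, 4.24 and 12.5 RPKM at 30 °C to 0.824, 1.66 and 2.33 RPKM at 20 °C, without overlap, and Ptprc by −1.07 ± 0.26. The rest of the count leaned on libraries 18 and 21: without them it was 2, without library 21 alone 5, and with a pseudocount of 0.1 it was 15. The fall at 20 °C was larger in Ucp1-KO than in wild-type iBAT for 15 of the 22 genes by the test of the interaction (40.5% of all genes), among them Cd37 (−1.28 ± 0.34, adjusted p = 0.00164), Lck (−1.04 ± 0.26) and Cxcl13 (−1.41 ± 0.42). Of the 15, Cd22, Cd28, Cd3d, Cd3e and Cd8b1 had passed the filter through the Ucp1-KO groups at 30 °C alone. Being high there was partly the condition for testing them. The count was 10 with median-ratio scaling (3363 of all genes higher and 3697 lower, instead of 1761 and 6001), 7 with quantile normalization and 6 with a pseudocount of 0.1.

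Diet changed few of the genes in iBAT. High fat diet raised Ighm by 2.75 ± 0.55 (adjusted p = 3.2e-04, limma) and Igj by 2.76 ± 0.41 (adjusted p = 3.3e-06) in Ucp1-KO iBAT, 2 of the 22 genes (8.35% of all genes were higher). Levels went from 16.6, 38.5 and 90.6 RPKM to the levels above for Ighm and from 2.22, 6.09 and 15.9 RPKM for Igj. The other 20 did not pass; Cd79a was at 0.69 ± 0.25 (adjusted p = 0.0502) and Ptprc at −0.12 ± 0.26. In iBAT of wild-type mice 1 gene was lower on high fat diet (14.5% of all genes), Lck by −0.50 ± 0.18 (adjusted p = 0.0331), and none without libraries 18 and 21. The diet change of Ighm and Igj was larger in Ucp1-KO than in wild-type iBAT, with interaction values of 3.17 ± 0.78 (adjusted p = 0.0086) and 2.90 ± 0.58 (adjusted p = 0.00125); no other gene of the 22 passed (2.78% of all genes higher). Without libraries 41, 44 and 46 Igj passed and Ighm did not.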

How the data were processed

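Poly(A) RNA of 96 libraries was sequenced from stranded libraries, per the labels' protocols. The authors deposited 1 table of RPKM per transcript (168326 transcripts); aligner, counter, genome build and annotation: not given in the sources used here. Transcripts without a gene identifier (13.8% of transcripts, 9.85% of summed RPKM) were left out. Each symbol was read from its transcript of highest mean, values were taken as log2(RPKM + 1), which understates changes of low genes, and genes at 0.5 RPKM or more in at least 8 libraries were tested (14807 in iBAT, 15897 in iWAT, 16310 for both). Group means were fitted per depot (12 groups together for the depots) with limma 3.58.1 in R 4.3.3, with p-values adjusted by Benjamini and Hochberg over all genes tested and called under 0.05; the fit was tested on simulated data. Read totals were recovered from the steps between low values: 94.9% to 95.7% of values up to 20 reads lay within 0.05 read of a whole number. RPKM of transcripts that share sequence depends on how shared reads were assigned.

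Groups came from the labels. The labels give 8 animals per group but no batch, and the limma p-values set differences of group means against the spread between libraries of a group. All 30 genes were named, from each other list at most 4 genes with the smallest p, Ucp1, and the 10 genes most like the members in iWAT. The members and lists were chosen with earlier results of these data known. Alternatives were the pseudocount, the filter, the scaling (median-ratio, quantile), the sum over transcripts, array weights, robust variance, only the groups compared, and leaving out libraries; the last of these by name (79; 18 and 21; 41, 44 and 46) were chosen after seeing the data.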

Additional observations from a re-analysis of the deposited data

Results flagged for a closer look

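Dixon's test looks for a library far from the other 7 of its group at the 95% level. It marked 18 of 132 gene and group pairs, and chance marks about 1 in 20. Library 79 (Ucp1-KO iWAT, control diet, 30 °C) was the low library for 9 genes: Ighm (0.638, at 46.0 RPKM), Cd79a (0.652, at 3.08 RPKM), Ms4a1 (0.730, at 2.05 RPKM), Cr2 (0.738, at 0.807 RPKM), Cd3e (0.664, at 1.12 RPKM), Cd8a (0.728, at 0.722 RPKM), Ltb (0.758, at 3.41 RPKM), Ptprc (0.697, at 6.99 RPKM) and Coro1a (0.676, at 12.9 RPKM). Glycam1 (picked with its values known) had 3.00 RPKM in that library.

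In wild-type iWAT on control diet at 30 °C, Ighm was high in library 65 (0.536, at 1076 RPKM), Cxcl13 high in library 68 (0.616, at 133 RPKM) and Igj low in library 72 (0.555, at 2.16 RPKM). Cxcl13 was also high in wild-type iWAT library 56 at 20 °C (0.563, at 108 RPKM) and low in Ucp1-KO iBAT library 31 on control diet at 30 °C (0.563, at 4.61 RPKM). In Ucp1-KO iBAT library 44 on high fat diet, Ms4a1 (0.601, at 5.19 RPKM) and Cr2 (0.571, at 0.288 RPKM) were high. The other 2 were Ms4a1 in Ucp1-KO iBAT library 14 at 20 °C (0.685, at 0.396 RPKM) and Cr2 in wild-type iBAT library 39 on high fat diet (1.000, at 0.0890 RPKM, the others being at 0), both worth a few reads.

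The temperature change differed between the genotypes in iBAT, by the limma interaction term on the log2(RPKM + 1) scale (Ucp1-KO minus wild-type, 20 minus 30 °C), for 15 genes. These were the T lymphocyte genes Cd2 (−0.66), Cd28 (−0.64), Cd3d (−0.98), Cd3e (−0.78), Cd3g (−1.14), Cd8a (−0.73), Cd8b1 (−0.91), Lck (−1.04) and Tcf7 (−0.78). They were also the B lymphocyte genes Cd22 (−0.89) and Igj (−1.66), the chemokine Cxcl13 (−1.41), and the leukocyte genes Cd37 (−1.28), Coro1a (−1.06) and Ptprc (−1.10). Of the 15, Cd22, Cd28, Cd3d, Cd3e and Cd8b1 were tested only because of their levels in the Ucp1-KO groups at 30 °C. The change with high fat diet differed between the genotypes in iBAT for Ighm (3.17) and Igj (2.90).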

How the results depend on the processing

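Counts below are of lymphocyte and lymph node genes past an adjusted p of 0.05 (limma). In iWAT the 27 genes lower in Ucp1-KO at 20 °C became 25 (median-ratio) and 26 (quantile), and stayed at 27 without any 1 library. The 11 lower at 30 °C on control diet became 5 without a filter, 5 with median-ratio scaling, 4 with only the groups compared, 2 without library 79, and 2 to 16 without 1 library. The 18 lower at 20 °C in Ucp1-KO iWAT became 0 (median-ratio), 1 (quantile), 8 (sum over transcripts), 5 (only the groups compared) and 8 to 27 without 1 library. In wild-type iWAT the 0 lower at 20 °C became 1 with array weights, 2 with only the groups compared and 0 to 1 without 1 library. The 0 changed by diet became 6 with array weights and 0 to 0 without 1 library. The 1 gene raised by diet in Ucp1-KO iWAT became 4 (array weights), 0 (only the groups compared), 0 without library 79 and 0 to 1 without 1 library. Array weights gave 11 and leaving out library 79 gave 10 for the temperature interaction in iWAT (main value 0, 0 to 10 without 1 library), and array weights 18 for the diet interaction (main value 0). In iBAT a filter of 1 RPKM in 24 libraries tests fewer of the genes: 4 were then lower at 20 °C in wild-type (main value 9) and 4 in Ucp1-KO (19), and 3, 5 and 5 were higher in Ucp1-KO (5 at 20 °C, 19 at 30 °C, 21 with high fat diet). With it, the diet count in Ucp1-KO was 1 (2), the temperature interaction 4 (15) and the diet interaction 1 (2). The 9 in wild-type iBAT became 15 with a pseudocount of 0.1, 15 with the sum, 5 with only the groups compared, 2 without libraries 18 and 21, and 5 to 11 without 1 library. The 5 at 20 °C became 10 with a pseudocount of 0.1, 3 without a filter, 8 with the sum and 3 to 6 without 1 library. The 1 gene lowered by diet in wild-type iBAT became 2 with a pseudocount of 0.1, median-ratio, quantile or the sum, 3 with array weights, 0 without a filter, with the stricter filter or without libraries 18 and 21, and 0 to 2 without 1 library. The temperature interaction became 6 with a pseudocount of 0.1, 7 with quantile, 8 with the sum and 12 to 16 without 1 library, and the diet interaction 1 without libraries 41, 44 and 46. Without 1 library the other counts in iBAT were 19 to 20 (temperature in Ucp1-KO and genotype at 30 °C), 21 to 22 (genotype on high fat diet), 2 to 3 (diet in Ucp1-KO) and 2 to 3 (diet interaction). The correlation of Cd79a with Cxcl13 in iBAT went from 0.10 to −0.01 without libraries 44 and 21. No single-gene change that passed reversed under these settings. For leaving out each library in turn only the counts were compared, so reversals were not checked there. Of the depot counts, the 26 on high fat diet in Ucp1-KO was 26 to 27 under the alternatives, and leaving out single libraries was not run there. The cause of these shifts was not tested, apart from the fewer genes that a stricter filter tests. No paired analysis was possible because the library numbers run from 1 to 96 and no group shares one. At 1 read per 0.0520 to 0.112 RPKM on 1 kb, iBAT levels under about 0.5 RPKM rest on few reads.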

Other observations

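Rag1, the recombinase of immature lymphocytes, was at 9.79 to 26.9 RPKM in the 48 iBAT libraries, above the highest Cd3e (4.22 RPKM) and Cd79a (9.31 RPKM) there, and did not move with the T lymphocyte genes. The other genes listed for immature T lymphocytes were not high there. Rag2 was at 0 in all 48 libraries, Ptcra at 0.0673 RPKM at most and Dntt at 0.609 RPKM at most. Rag1 was lower in Ucp1-KO than in wild-type iBAT at 30 °C on control diet (−0.48 ± 0.12 on the log2(RPKM + 1) scale, adjusted p = 7.5e-04, limma) and on high fat diet (−0.59 ± 0.12, adjusted p = 6.7e-05), where the 11 T lymphocyte genes tested were higher (5 of them tested through these groups alone). In both conditions the levels of the genotypes overlapped.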
